A study of Mus musculus with 2 samples.

Results

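The genes described here are 10 mouse genes of the Polycomb system, namely Bmi1, Pcgf1, Pcgf5, Pcgf6, Ring1, Rnf2, Ezh1, Ezh2, Eed and Suz12. They were taken by gene symbol from a deposited table of 25791 gene rows, and each of the 10 symbols had 1 row. The table compares Extensively Self-Renewing Erythroblasts (ESREs), a culture of dividing, still immature precursors of red blood cells. The maturation group consists of cells matured for 1 day, and the expansion group of cells whose treatment is labelled expansion. Both groups are labelled with a C57/bl6 background, and the series title names transgenic β-Yac mice, although the sample labels name no transgene. The growth and maturation media are given in the labels only by a citation. The design text speaks of biological duplicates, but the table holds 1 value per gene and group, so the differences below carry no SD and no test between replicates. Each value is treated as the authors' pooled value for its group.

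Polycomb proteins keep genes silent by modifying histones. Polycomb repressive complex 1 (PRC1) attaches ubiquitin to histone H2A through RING1 or RNF2, each paired with a PCGF ring finger protein of which BMI1 is the best known. Polycomb repressive complex 2 (PRC2) methylates histone H3 at lysine 27 through EZH1 or EZH2, which need EED and SUZ12 as partners. BMI1 is known for sustaining the self-renewal of blood stem cells, in part by silencing the Cdkn2a locus, and its forced expression has been described to extend the self-renewal of cultured erythroblasts.

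The values are FPKM, which are fragment numbers scaled by transcript length and library size, so levels of different genes can be set side by side. All 10 genes reached an FPKM of at least 1 in at least 1 group, as did 9263 rows of the table, called expressed rows below. The summed FPKM was 416690 in maturation and 411084 in expansion. Among 6593 rows above 0 and below 0.05 FPKM in both groups, 114 had the same log2 ratio of -0.16 within 0.00015, as rows with equal fragment numbers would. If they do hold equal fragment numbers, the depth by which the values were scaled was 1.12 times as high in maturation as in expansion. If the highest length-scaled values among these rows stand for 1 fragment, the depth was about 235000000 fragments in maturation and 209000000 in expansion, from 6 rows with a single annotated transcript of at least 1500 bases. With the longest annotated coding transcript, Bmi1 would rest on about 2275 fragments in maturation and 3153 in expansion, and the counting error of its log2 ratio would be 0.040. With the shortest coding transcript of each gene, the smallest number was 161 fragments, for Rnf2 in maturation, and the largest counting error over the 10 genes was 0.15, for Pcgf5. These errors cover counting alone, and fragments copied by PCR are not independent molecules.

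The labelled cell type was checked against marker genes. All 8 erythroid markers reached 1 FPKM in a group, with a summed FPKM of 8587 in maturation and 2027 in expansion. Most of both sums was Hba-a1, at 8370 FPKM in maturation and 1951 in expansion. Alas2 and Slc4a1 reached 1 FPKM only in maturation, at 7.89 and 18.0. In expansion they were at 0.975 and 0.0744 FPKM. Of 21 rows for macrophage, granulocyte, lymphocyte, stromal, endothelial and hepatocyte markers, 1 reached 1 FPKM, and their sum was 1.05 in maturation and 2.04 in expansion. The 6 mast cell and basophil markers summed to 1.79 FPKM in maturation and 15.9 in expansion, with 3 at least 2-fold lower. Within that list Mcpt4 was higher, at 0.715 FPKM in maturation and 0.00971 in expansion, as was Cma1, at 0.288 in maturation and 0.192 in expansion, and Cpa3 was listed at 0 in maturation and stood at 0.107 in expansion. The 6 megakaryocyte and platelet markers summed to 4.13 FPKM in maturation and 22.8 in expansion, with 3 at least 2-fold lower. Gp9 was higher, at 1.84 FPKM in maturation and 0.756 in expansion, and Pf4 was listed at 0 in maturation and stood at 0.0333 in expansion. The 4 immature erythroid or progenitor markers summed to 3.42 FPKM in maturation and 37.2 in expansion, with 3 of them, Kit, Gata2 and Myb, at least 2-fold lower. For these marker counts 1 was added to each FPKM, and 6.70% of all expressed rows were at least 2-fold lower in the same way. The mast cell, megakaryocyte and progenitor sums were lower in maturation, as were Bmi1, Eed, Rnf2 and Pcgf6, and their part in those differences was not tested.

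The promoter windows of 3 of the genes are printed because they hold letters recognised by factors of cell division and growth. RefSeq windows on GRCm38.p6, a different build from the mm9 loci given below, were at hand for 9 of the 10 genes (11 windows), and were read from 250 bases before the annotated start to 30 bases from it, 280 bases in all. Capitals mark an E2F motif (TTTCCCGC, TTTGCCGC, TTTGGCGC or TTTCGCGC) or the E-box CACGTG, which MYC and MAX can bind. Both strands were searched. The motifs do not overlap one another in these windows.
Ezh2, chr6:47595001-47595280, minus strand: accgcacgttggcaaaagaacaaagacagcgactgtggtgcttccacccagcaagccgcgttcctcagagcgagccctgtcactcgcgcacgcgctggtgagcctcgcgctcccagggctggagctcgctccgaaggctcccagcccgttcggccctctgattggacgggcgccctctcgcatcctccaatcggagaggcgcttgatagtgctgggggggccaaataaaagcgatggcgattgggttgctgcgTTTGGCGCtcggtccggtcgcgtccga
Suz12, chr11:79992856-79993135, plus strand: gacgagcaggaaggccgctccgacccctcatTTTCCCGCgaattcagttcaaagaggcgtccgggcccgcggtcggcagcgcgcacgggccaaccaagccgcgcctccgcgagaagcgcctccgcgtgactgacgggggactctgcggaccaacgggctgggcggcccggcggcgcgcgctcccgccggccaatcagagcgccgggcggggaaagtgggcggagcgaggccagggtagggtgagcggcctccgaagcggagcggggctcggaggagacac
Bmi1, chr2:18676768-18677047, plus strand: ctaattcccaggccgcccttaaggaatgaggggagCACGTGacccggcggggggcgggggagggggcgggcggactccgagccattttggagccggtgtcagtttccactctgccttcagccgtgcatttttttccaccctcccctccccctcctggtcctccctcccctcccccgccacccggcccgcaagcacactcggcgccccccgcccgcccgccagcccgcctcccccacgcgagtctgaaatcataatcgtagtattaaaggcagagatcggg

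An E2F motif stood in 2 of the 11 windows, those of Ezh2 and Suz12. The same motif was in 2.12% of all 32851 RefSeq windows. In Ezh2 its first base lay at position 4 counted from the start site as 1, and in Suz12 at position -219. The E-box stood in 1 of the 11 windows, that of Bmi1, at position -215, and in 6.79% of all windows. The GATA motif AGATAA was in none of the members' windows and in 10.7% of all windows. The box CCAAT was in 4 of the 11 windows, from Eed, Ezh2, Pcgf5 and Suz12, and in 36.1% of all windows. CpG dinucleotides numbered 5 to 41 per member window with a median of 27, against a median of 6 over all windows. Every E2F form searched and the E-box contain CG, so all windows are not a like background for them. A match is a run of letters and not a measured binding site.

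After 1 day of maturation Ezh2 stood higher and Rnf2, Eed and Bmi1 stood lower, each by a modest amount. Ezh2 was 1.45-fold higher in maturation, while Rnf2 was 2.08-fold, Eed 1.59-fold and Bmi1 1.55-fold lower, as ratios of the FPKM values. Suz12 and Pcgf5 were slightly higher, and Pcgf6, Ring1, Pcgf1 and Ezh1 were lower by 1.14-fold to 1.42-fold as deposited, of which Ring1, Pcgf1 and Ezh1 were above the median of all expressed rows once ratios were centred. On the log2(FPKM + 1) scale, which understates differences of weakly expressed genes, none of the 10 genes was at least 2-fold higher and none was at least 2-fold lower. Log2 ratios below are on this scale unless another is named. Over all expressed rows, 3.13% were at least 2-fold higher and 6.70% were at least 2-fold lower on that scale. At a lower limit of 1.5-fold, 1 of the 10 genes was lower (Rnf2) and none was higher, beside 20.4% of all expressed rows lower and 6.30% higher. The median log2 ratio was -0.15 over the 10 genes and -0.25 over all expressed rows. Because 74.1% of all expressed rows lay below 0, the sign of a small log2 ratio depends on the scaling. Once the ratios were centred on that median, 4.53% passed 2-fold upwards and 3.92% downwards (420 and 363 rows, in place of 290 and 621), and the 10 genes again had none in either direction. In bulk RNA, fewer cells with a transcript and less of it per cell cannot be told apart.

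**Figure D1:**
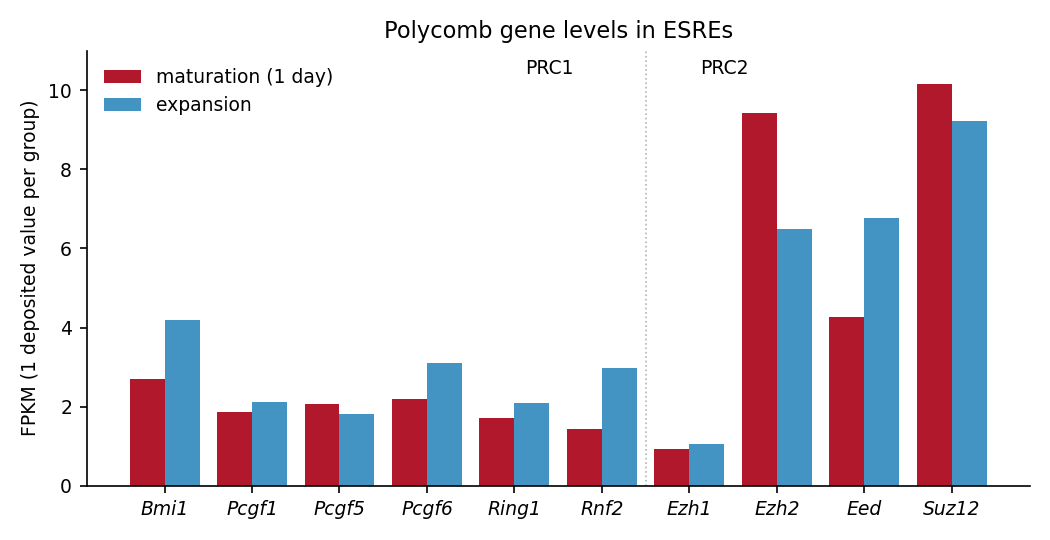
FPKM of the 10 Polycomb genes in maturation (red, left bar) and expansion (blue, right bar), 1 deposited value per group and so no error bars. Suz12 and Ezh2 had the highest bars in maturation (10.2 and 9.43 FPKM), and the PRC1 genes all stayed below 5 FPKM in both groups.

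**Figure D2:**
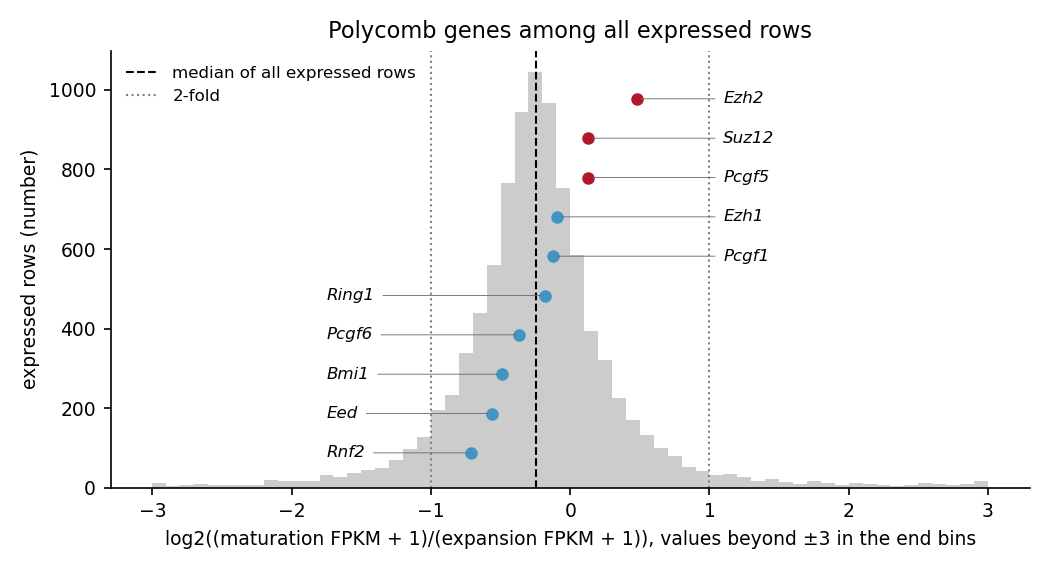
Histogram of the log2 ratio of maturation over expansion, on the FPKM + 1 scale, for the 9263 expressed rows, with the 10 Polycomb genes as points whose height only separates them (red above 0, blue below 0). The dashed line is the median of all expressed rows (-0.25) and the dotted lines mark 2-fold; all 10 points lie between the dotted lines, from Rnf2 at -0.71 to Ezh2 at 0.48.

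Bmi1, a PCGF protein of canonical PRC1 (chr2:18598645-18608256 on mm9, plus strand), was at 2.70 FPKM in maturation and 4.19 FPKM in expansion. It was the fourth highest of the 10 genes in both groups and the highest of the PRC1 genes. Its log2 ratio was -0.49, and 26.5% of expressed rows had a lower one. Relative to the median of all expressed rows the difference was -0.24. A further row, Gm5946 on chrX:146655252-146657879, belongs to a transcribed pseudogene made from Bmi1 sequence, and was at 3.68 FPKM in maturation and 5.63 FPKM in expansion. Reads of 36 bases placed along the annotated Bmi1 transcripts would match Gm5946 exactly at 23.7% of distinct positions, and reads of 75 bases at 10.1%. The read length and the handling of reads that match both rows were not stated in the sources used here, and the level of Bmi1 is therefore uncertain. Both rows had nearly the same fold, since Gm5946 was 1.53-fold lower in maturation and the sum of both was 1.54-fold lower.

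The expressed rows closest to Bmi1 over the 2 group values on the log2(FPKM + 1) scale were Hsdl2, Stim1 and Tada1, at distances of 0.0081, 0.016 and 0.023. Hsdl2 was at 2.68 FPKM in maturation and 4.20 FPKM in expansion. With 2 values per gene, this likeness describes a level and a difference only.

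The other PCGF members pair with RING1 or RNF2 in variant PRC1, which lacks the chromodomain subunits of the canonical complex. Pcgf6 (chr19:47108109-47125335, minus strand), whose protein joins the complex with MAX and E2F6, was at 2.19 FPKM in maturation and 3.10 FPKM in expansion. Pcgf1 (chr6:83028384-83030849, plus strand), whose protein joins KDM2B and BCOR, was at 1.86 FPKM in maturation and 2.12 FPKM in expansion. Pcgf5 (chr19:36453557-36530694, plus strand) was at 2.06 FPKM in maturation and 1.81 FPKM in expansion, and was the 1 of these 3 with a higher level in maturation as deposited. Their log2 ratios were -0.36 for Pcgf6, -0.13 for Pcgf1 and 0.13 for Pcgf5. The counting error of the Pcgf1 ratio was 0.10 to 0.14 over its coding transcripts, so its ratio without a pseudocount, -0.19, lay within 2 counting errors. For Pcgf5 the counting error was 0.039 with the longest and 0.15 with the shortest coding transcript. Its ratio without a pseudocount, 0.19, lay within 2 counting errors with the shortest one only. Pcgf1 shares 20.6% of distinct 36-base positions with the pseudogene Gm8930. Pcgf5 shares its deposited locus with the row F530104D19Rik, which was at 0.193 FPKM in maturation and 0.104 FPKM in expansion.

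The remaining family genes, Pcgf2 and Pcgf3, are not among the 10 and complete the set of PCGF paralogs. Pcgf2, the closest relative of Bmi1, was at 0.0354 FPKM in maturation and 0.0555 FPKM in expansion, so Bmi1 stood 76.2 times above it in maturation and 75.5 times above it in expansion. Pcgf3, the closest relative of Pcgf5, was at 2.41 FPKM in maturation and 1.30 FPKM in expansion, a 1.86-fold higher level. The summed FPKM of the 6 PCGF genes was 11.3 in maturation and 12.6 in expansion. Bmi1 made up 24.0% of that sum in maturation and 33.3% in expansion. Pcgf3 made up 21.4% in maturation and 10.3% in expansion, and Pcgf5 made up 18.3% in maturation and 14.4% in expansion. The ratio of Bmi1 to Pcgf3 was 1.12 in maturation and 3.22 in expansion, and that of Bmi1 to Pcgf6 was 1.23 in maturation and 1.35 in expansion. In maturation 5 PCGF genes thus lay between 1.86 and 2.70 FPKM, while in expansion the same 5 lay between 1.30 and 4.19 FPKM.

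The catalytic ring finger genes of PRC1 are Ring1 and Rnf2. Rnf2 (chr1:153316536-153347953, minus strand), which encodes RING1B, was at 1.42 FPKM in maturation and 2.96 FPKM in expansion. This was the largest difference among the 10 genes as a fold, with a log2 ratio of -0.71 on the FPKM + 1 scale, and 14.6% of expressed rows had a lower ratio. Without a pseudocount its log2 ratio was -1.06, which passes 2-fold. On that scale 14.8% of expressed rows with a value above 0 in both groups were at least 2-fold lower and 3.96% at least 2-fold higher, and none of the 10 genes was at least 2-fold higher. Ring1 (chr17:34157737-34161625, minus strand), which encodes RING1A, was at 1.72 FPKM in maturation and 2.08 FPKM in expansion. Its log2 ratio was -0.18, near the -0.25 median of all expressed rows. The order of the pair therefore differed between the groups, as Rnf2 was 0.828 times Ring1 in maturation and 1.43 times Ring1 in expansion. Their summed FPKM was 3.14 in maturation and 5.04 in expansion. Ring1 shares its deposited locus with the row LOC100502891, which was at 0.417 FPKM in maturation and 0.42 FPKM in expansion.

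Of the PRC2 genes, Suz12, Ezh2 and Eed had the 3 highest levels of the 10 genes in both groups. Suz12 (chr11:79806608-79847625, plus strand), the scaffold of PRC2, was at 10.2 FPKM in maturation and 9.23 FPKM in expansion, the highest level in both groups. Its log2 ratio was 0.13. Ezh2 (chr6:47480273-47545029, minus strand), the methyltransferase that prevails in dividing cells, was at 9.43 FPKM in maturation and 6.49 FPKM in expansion. Its log2 ratio was 0.48, higher than that of 92.1% of expressed rows, and relative to their median the difference was 0.73. Eed (chr7:97103164-97129486, minus strand), which binds the methylated histone tail, was at 4.26 FPKM in maturation and 6.77 FPKM in expansion. Its log2 ratio was -0.56, and 21.6% of expressed rows had a lower one. Ezh1 (chr11:101052429-101087764, minus strand), the methyltransferase that prevails in resting cells, was at 0.924 FPKM in maturation and 1.05 FPKM in expansion, the lowest level of the 10 genes in both groups.

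The PRC2 core genes thus did not move together. Ezh2 stood at 2.21 times Eed in maturation and 0.958 times Eed in expansion. Suz12 stood at 2.39 times Eed in maturation and 1.36 times Eed in expansion. These ratios were chosen after the values were seen. Ezh2 stood at 10.2 times Ezh1 in maturation and 6.15 times Ezh1 in expansion, and made up 91.1% of the summed EZH level in maturation and 86.0% in expansion. Of the 36-base positions of these transcripts, other genes of either strand and any location share exact matches with 0.28% for Ezh1 and up to 7.25% for Eed. The row antisense to Eed, E230029C05Rik, shares 5.81% and was at 0.109 FPKM in maturation and 0.0896 FPKM in expansion. No source used here says whether the libraries kept strand.

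**Figure D3:**
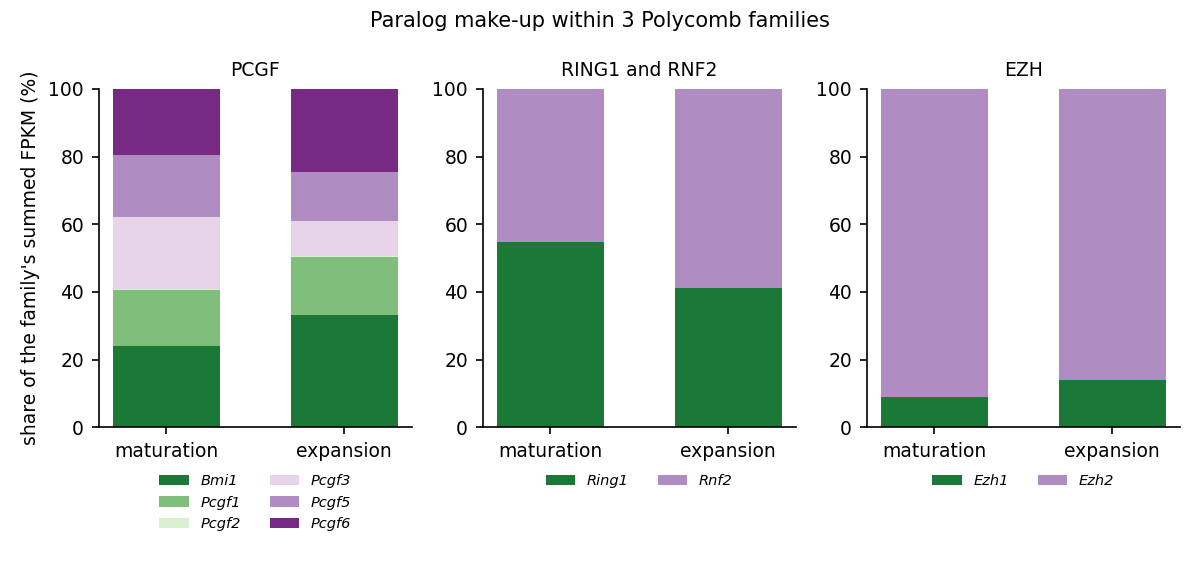
Share of the summed FPKM held by each paralog, in percent, in maturation (left bar of each panel) and expansion (right bar), for the 6 PCGF genes, Ring1 with Rnf2, and Ezh1 with Ezh2. Bmi1 held 24.0% of the PCGF sum in maturation and 33.3% in expansion, Rnf2 held 45.3% of its pair in maturation and 58.8% in expansion, and Ezh2 held most of the EZH sum in both groups.

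In order of level, maturation ran Suz12, Ezh2, Eed, Bmi1, Pcgf6, Pcgf5, Pcgf1, Ring1, Rnf2 and Ezh1. Expansion ran Suz12, Eed, Ezh2, Bmi1, Pcgf6, Rnf2, Pcgf1, Ring1, Pcgf5 and Ezh1. Rnf2 was ninth in maturation and sixth in expansion, and Pcgf5 was sixth in maturation and ninth in expansion. Without replicate values it is not known which neighbours in these orders differ beyond the spread between samples.

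The other subunits of the complexes were read from lists chosen by role. Of 11 canonical PRC1 subunits outside the 10 genes, 4 were expressed, and the median log2 ratio was -0.048. None was past 2-fold on the FPKM + 1 scale, while 1, Phc1, was 2.77-fold lower as a plain ratio of FPKM, a scale on which 14.8% of expressed rows were at least 2-fold lower. Phc1, a polyhomeotic protein that lets PRC1 assemble into larger bodies, was at 0.946 FPKM in maturation and 2.62 FPKM in expansion. Its paralog Phc2 was at 2.41 FPKM in maturation and 2.84 FPKM in expansion. Scmh1, a related scaffold protein, was at 2.47 FPKM in maturation and 1.47 FPKM in expansion. Cbx6 was the 1 expressed chromodomain subunit of the list, at 2.63 FPKM in maturation and 2.45 FPKM in expansion, while Cbx7 was just below the limit at 0.737 FPKM in maturation and 0.997 FPKM in expansion.

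Of 23 variant PRC1 subunits, 19 were expressed, and the median log2 ratio was -0.21, near that of all expressed rows. None was past 2-fold on the FPKM + 1 scale. As plain ratios 2 were lower by more than that, Fbrs by 2.08-fold and Yaf2 by 2.03-fold, beside 14.8% of expressed rows. Usp7, a ubiquitin protease bound to these complexes, was at 11.2 FPKM in maturation and 7.24 FPKM in expansion. Fbrs, a partner of PCGF3 and PCGF5 complexes, was at 2.88 FPKM in maturation and 5.98 FPKM in expansion. Rybp and Yaf2 encode alternative subunits that bind the RING1 proteins, and both were lower in maturation. Yaf2 was at 1.39 FPKM in maturation and 2.83 FPKM in expansion, and Rybp at 1.498 FPKM in maturation and 2.44 FPKM in expansion.

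Of 8 PRC2 partners, 4 were expressed, with a median log2 ratio of -0.18. None was past 2-fold on the FPKM + 1 scale. As a plain ratio 1, Aebp2, was 2.29-fold lower, beside 14.8% of expressed rows at least 2-fold lower. Rbbp4 and Rbbp7, histone-binding subunits shared with other complexes, were the most abundant. Rbbp4 was at 16.9 FPKM in maturation and 14.96 FPKM in expansion, and Rbbp7 at 23.3 FPKM in maturation and 29.5 FPKM in expansion. Aebp2, a zinc finger cofactor of PRC2, was at 2.47 FPKM in maturation and 5.67 FPKM in expansion, and its log2 ratio of -0.94 was the lowest of the list. Mtf2, a Polycomb-like protein that helps bring PRC2 to DNA, was at 2.48 FPKM in maturation and 2.56 FPKM in expansion. Jarid2, a further cofactor named after its values were seen, was listed at 0 in both groups, and an exact 0 can be a failed estimate.

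Genes that oppose or flank the complexes were read in the same way. Among 15 genes of the BAP1 complex and other H2A deubiquitinases, 11 were expressed, with a median log2 ratio of -0.15. None was past 2-fold on the FPKM + 1 scale, while as plain ratios 2 were, Asxl1 at 2.03-fold lower and Foxk1 at 2.12-fold lower. For this list and those that follow here, 14.8% of expressed rows were at least 2-fold lower as plain ratios. Asxl1, the BAP1 cofactor, was at 2.68 FPKM in maturation and 5.45 FPKM in expansion. All 3 demethylases of the same H3 lysine were expressed, with a median log2 ratio of -0.12, and Kdm6b was at 1.15 FPKM in maturation and 2.37 FPKM in expansion, 2.06-fold lower as a plain ratio. Of 7 genes for the DNA-binding PhoRC complex and related MBT proteins, 3 were expressed, with a median of -0.35. Mbtd1 was 2.13-fold lower as a plain ratio, and Yy1 was at 5.58 FPKM in maturation and 7.39 FPKM in expansion.

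**Figure D4:**
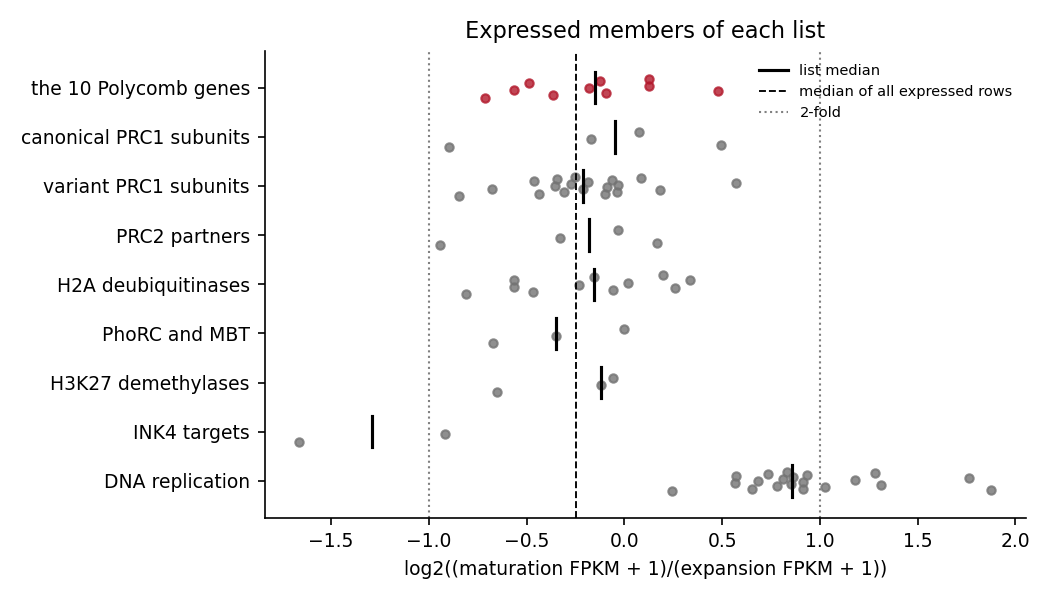
Log2 ratio of maturation over expansion on the FPKM + 1 scale for each expressed gene (point) of the 10 Polycomb genes (red) and of 8 related lists (grey), with the list median as a short bar, the median of all expressed rows dashed and 2-fold dotted. Points of the Polycomb lists lie within the dotted lines, a gene of the INK4 pair lies below -1, and all 20 DNA replication genes lie above 0.

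Known targets of Polycomb silencing were at low levels, with a few exceptions. Low levels were common, since 9263 of all 25791 rows reached 1 FPKM in at least 1 group. Cdkn2a, a CDK inhibitor locus that BMI1 represses in other cells, was at 2.12 FPKM in maturation and 8.88 FPKM in expansion. Its neighbour Cdkn2b was at 0.385 FPKM in maturation and 1.61 FPKM in expansion. Both were 4.19-fold lower in maturation. On the FPKM + 1 scale, 1.90% of expressed rows had a lower ratio than Cdkn2a and 8.43% a lower one than Cdkn2b. Bmi1 was also lower in maturation, and a relation of these genes to its level was not tested. Of 39 Hox genes, 38 stayed below 1 FPKM in both groups, and the summed FPKM of all 39 was 1.59 in maturation and 2.94 in expansion. The expressed one was Hoxc4, at 0.325 FPKM in maturation and 1.197 FPKM in expansion. Of 30 other developmental regulators, 29 stayed below 1 FPKM in both groups. The other, Pax6, known from eye and brain development, was at 1.47 FPKM in maturation and 6.50 FPKM in expansion.

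Genes of DNA replication, many of which are known E2F targets, were set beside Ezh2. All 20 listed replication genes were expressed and had a log2 ratio above 0, with a median of 0.86. Of all expressed rows, 25.9% lay above 0. At least 2-fold higher were 6 of the 20 (14 after centring), beside 3.13% of all expressed rows (4.53% after centring). Ccne1, which encodes cyclin E1, was at 12.2 FPKM in maturation and 2.60 FPKM in expansion. The lowest log2 ratio of that list was 0.24 and the next lowest was 0.56. The 0.48 of Ezh2 lay between them and so near the bottom of the list, below its median of 0.86. The 0.13 of Suz12 and the -0.56 of Eed lay below the whole list.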

How the data were processed

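RNA levels of mouse ESREs were measured by RNA sequencing in 2 groups, maturation and expansion, with 1 deposited value per gene and group. The authors deposited FPKM values, and the submitters' processing notes name Cuffdiff 2.0.2 and the build mm9. Aligner, annotation, filters and read length were not stated in the sources used here. Per the labels' protocols, a Qiagen kit was used for RNA and a NextFlex kit for the libraries.

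Log2 ratios are maturation over expansion, with 1 added to each FPKM, and folds are ratios of the FPKM values. A row counted as expressed at an FPKM of at least 1 in at least 1 group. With 1 value per group, at least 2-fold describes size and is no test. The members and lists were chosen with earlier results of these data known. Of 160 entries in the related lists, 158 matched by symbol and 2 by a RefSeq synonym. Named genes are the 10 members, Pcgf2, Pcgf3, Cdkn2a, Cdkn2b and, from each list, some of the 4 expressed genes with the largest absolute log2 ratio; Cbx7 and Jarid2 were chosen after their values were seen. The table counts start positions from 0 (190 of 190 microRNA spans equalled their RefSeq length), and they are printed counted from 1. Shared read positions were found by exact matches between GENCODE M21 transcripts. The depth estimate was tested on simulated fragments for the 25791 rows of maturation against expansion and recovered 94.4% of both totals. The simulation drew 1 library per group with 1 set length per row. It therefore does not cover the authors' unstated annotation or their handling of duplicates. Python 3.11.15, numpy 2.4.6, pandas 2.3.3 and matplotlib 3.10.9 were used. The alternatives tried were pseudocounts of 0.1 and 5, no pseudocount (chosen after seeing the data), no filter on low values and an FPKM minimum of 5, centring, 2 rescalings and a 1.5-fold limit.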

Additional observations from a re-analysis of the deposited data

How the results depend on the processing

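No member passed the fold limit upwards under any of the 9 alternatives. Downwards, 1 member (Rnf2) passed 2-fold with a pseudocount of 0.1 and with no pseudocount. Rnf2 alone also passed the lower limit of 1.5-fold downwards, and the count was 0 in the other settings. A pseudocount of 0.1 put 1303 rows among all 9263 past 2-fold downwards and 373 upwards, so Rnf2 was 1 of many there. The share of all expressed rows past the 1.5-fold limit was 6.30% higher and 20.4% lower. The median log2 ratio of the members became 0.13 with an FPKM minimum of 5, which kept 3 of them, 0.095 after centring, and -0.017 both after rescaling to an equal sum without globin and small RNA rows and after rescaling by the upper quartile. Ezh2, Suz12 and Pcgf5 stayed above 0 and Bmi1, Eed, Rnf2 and Pcgf6 below 0 in every setting computed. The ranges were 0.33 to 0.73 for Ezh2, -0.63 to -0.24 for Bmi1 and -1.06 to -0.31 for Rnf2. A pseudocount or a fold limit cannot change a sign, and centring and both rescalings only raised the ratios. The signs of Ezh2, Suz12 and Pcgf5 were thus fixed in advance, and those below 0 could change only by centring or rescaling. Pcgf1 and Ezh1 were above 0 after centring and after both rescalings, and Ring1 after centring. With no pseudocount, the count at least 2-fold lower moved to 1 for canonical PRC1 subunits, PRC2 partners, PhoRC and MBT genes and demethylases, and to 2 for variant PRC1 subunits and deubiquitinases, against 0 for each on the FPKM + 1 scale. The share of expressed rows at least 2-fold lower with no pseudocount was 14.8%. No paired analysis was possible because the table holds 1 value per group and no replicate numbers, and for the same reason no replicate could be left out.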

Other observations

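The smallest FPKM values bear on the depth of the table. Besides the 114 low rows at a log2 ratio of -0.16, further rows lay exactly 1 step away, as fragment numbers of 2 against 1 (28 rows) and 1 against 2 (22 rows) in maturation against expansion would. Positions 0.05 higher on the log2 scale held 1, 1 and 0 rows. Only the most common ratio and steps built on it were looked for. A second step size, from the duplicates of which the design text speaks, could therefore have been missed.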
